A study of Mus musculus with 2 samples.

Results

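Osteoclast-like cells were picked by their transcripts out of 2 single-cell RNA sequencing libraries of mouse tumours grown from 4T1, a line derived from a triple negative mammary carcinoma, and 54 of 28854 cells met the rule. A cell was kept with at least 200 genes and at most 20% of its UMIs (unique molecular identifiers, each standing for 1 captured transcript) from the mitochondrial genome. It was called osteoclast-like when Ctsk and Acp5 together reached at least 20 per 10000 UMIs and Acp5, Ocstamp, Atp6v0d2 and Oscar together gave at least 3 UMIs. Col1a1 plus Col3a1 had to stay under 50 and Krt8 plus Krt18 under 10 per 10000 UMIs, which keeps out collagen-producing and keratin-rich tumour cells. Because these measured values chose the cells, the levels of these genes are a description of the cells and support nothing. The AptCD4-LNT library came from BALB/c mice bearing such tumours that were given AptCD4-LNT every 3 days, in doses of 5, 4 and 3 times 1000000 cells. The Untreated library came from BALB/c mice bearing the same tumours that received PBS. The labels call the material of both libraries tumour cells. Tumours were taken at 9 days and 3 were mixed into each library, so each group is 1 library and nothing measures the spread between mice. No difference was therefore tested, and the 95% intervals below are exact and cover counting error only, apart from those on median UMIs per cell.

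Osteoclasts are the bone-resorbing cells of the monocyte and macrophage lineage. Macrophage colony-stimulating factor, acting through the receptor encoded by Csf1r, and RANK ligand, acting through RANK (Tnfrsf11a), drive precursors to switch on the transcription factor NFATc1, to fuse, and to make the machinery of resorption. That machinery is an acid-secreting vacuolar proton pump, an integrin-based sealing zone, and the secreted enzymes cathepsin K (Ctsk), tartrate-resistant acid phosphatase (Acp5) and gelatinase B (Mmp9). Multinucleated cells with osteoclast features are also known from some tumours outside bone. Large multinucleated cells are poorly captured in droplets.

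After the filters the AptCD4-LNT library held 8853 cells with a median of 8838 UMIs and the Untreated library 20001 cells with a median of 4652 UMIs. Across the libraries 42 cell barcodes were shared, and none of the osteoclast-like cells was among them. Doublet calling with Scrublet marked 200 AptCD4-LNT cells (2.26%) and 1490 Untreated cells (7.45%), and 0 of the 54 osteoclast-like cells. The members nearest the threshold held 20.6, 33.9 and 35.0 Ctsk plus Acp5 UMIs per 10000 in the AptCD4-LNT library and 21.9, 22.1 and 24.0 in the Untreated library. The nearest cells outside it held 18.6, 17.0 and 10.7 in the AptCD4-LNT library and 19.8, 19.5 and 19.0 in the Untreated library. Between 10 and 20 per 10000 lay 3 further AptCD4-LNT and 27 further Untreated cells. The collagen and keratin limits removed 1 AptCD4-LNT and 3 Untreated cells, in each case through the keratin genes.

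The 2 enzymes that lead the rule were among the most abundant transcripts of the chosen cells. Levels are given as CPM: all UMIs in a cell group are added up, and a gene's part is scaled to 1000000. The comparison group is C1qa-positive macrophages. These had at least 1 UMI of C1qa and C1qa, C1qb and C1qc together at 20 or more per 10000 UMIs, and met the same collagen and keratin limits. Ctsk, the collagen-degrading cathepsin of bone resorption, stood at 13968 CPM in AptCD4-LNT and 20361 CPM in Untreated osteoclast-like cells, against 10.6 and 3.57 CPM in the macrophages of the same libraries. Acp5, the enzyme used to stain osteoclasts, stood at 14185 and 19693 CPM in AptCD4-LNT and Untreated osteoclast-like cells, against 47.8 and 126 CPM in macrophages. Pooled over the libraries Ctsk ranked 2 and Acp5 ranked 3 in abundance, and Mmp9, which the rule did not use, ranked 6.

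The rarer marker transcripts gave lower levels in the same cells. Atp6v0d2, a proton pump subunit that also acts in precursor fusion, had 1088 and 733 CPM in AptCD4-LNT and Untreated osteoclast-like cells, against 1.67 and 11.7 CPM in macrophages. Ocstamp, a membrane protein needed for fusion, had 342 and 163 CPM, against 8.75 and 12.1 CPM. Oscar, an immunoglobulin-like receptor that gives a costimulatory signal, had 207 and 249.7 CPM in osteoclast-like cells and 0 UMIs among the 3253 macrophages. With 3 UMIs over all macrophages taken as the floor, the level was 1194-fold higher. The exact interval of the pooled ratio starts at 954. All 5 marker genes were seen in 18 of the 54 cells, at least 4 in 33 cells and at least 3 in 45 cells.

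Promoter sequences of 3 of the rule's genes, 250 bases before to 50 after the start of transcription, are shown because these genes choose the cells. They are from RefSeq on GRCm38.p6, read 5′ to 3′ on the gene's strand, and the table holds no entry for Ocstamp, Atp6v0d2 or Mmp9. Capitals mark matches on either strand to GGAAA, the core bound by NFAT factors, or GAGGAA, a core bound by PU.1. These motifs can overlap, as TTTCCTC holds both on the opposite strand. Ctsk is at chr3:95498960-95499259 on the plus strand, Acp5 at chr9:22135697-22135996 on the minus strand, the start farthest upstream of 3 listed, and Oscar at chr7:3616108-3616407 on the minus strand.
Ctsk: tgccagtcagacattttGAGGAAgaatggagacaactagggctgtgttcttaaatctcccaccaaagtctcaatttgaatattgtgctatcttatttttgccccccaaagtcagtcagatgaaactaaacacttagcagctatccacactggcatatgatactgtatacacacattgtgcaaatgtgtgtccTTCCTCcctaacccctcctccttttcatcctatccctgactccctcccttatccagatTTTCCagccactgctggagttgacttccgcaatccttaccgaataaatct
Acp5: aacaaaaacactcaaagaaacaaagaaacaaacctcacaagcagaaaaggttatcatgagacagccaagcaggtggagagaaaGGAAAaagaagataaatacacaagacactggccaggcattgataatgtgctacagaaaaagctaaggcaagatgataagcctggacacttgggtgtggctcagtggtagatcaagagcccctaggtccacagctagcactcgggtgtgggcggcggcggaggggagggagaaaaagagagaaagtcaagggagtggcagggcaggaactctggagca
Oscar: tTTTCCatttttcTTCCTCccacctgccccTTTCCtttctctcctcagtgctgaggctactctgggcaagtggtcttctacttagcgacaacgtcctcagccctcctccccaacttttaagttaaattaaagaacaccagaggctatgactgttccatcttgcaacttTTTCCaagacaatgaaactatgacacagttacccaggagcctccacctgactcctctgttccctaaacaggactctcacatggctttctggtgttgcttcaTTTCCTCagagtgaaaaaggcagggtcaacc
The GGAAA core matched 1 time in the Ctsk sequence, 1 time in that of Acp5 and 4 times in that of Oscar, and 61.3% of 32851 promoters of the table hold it. The GAGGAA core matched 2 times in the sequence of Ctsk, 0 times in that of Acp5 and 2 times in that of Oscar, and 28.3% of the promoters hold it. TGANTCA, the AP-1 heptamer, is not in these windows and is in 7.81% of all promoters. A match is a description of the letters and not a binding site.

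The chosen cells were far from uniform in their marker level. Ctsk plus Acp5 ranged from 20.6 to 630 per 10000 UMIs in the 22 AptCD4-LNT cells, with a median of 238, and from 21.9 to 1102 in the 32 Untreated cells, with a median of 344. Of the 54 cells, 43 reached 40 per 10000 and 16 reached 500, while 11 lay between 20 and 40. Mmp9, the gelatinase that osteoclasts secrete, had a median of 30.3 per 10000 (0 to 346) in AptCD4-LNT cells and 123 (0 to 357) in Untreated cells. It was seen in 39 of the 43 cells at 40 or more and in 6 of the 11 below. Across the 54 cells the rank correlation of Mmp9 with Ctsk plus Acp5 was 0.84, and 0.82 and 0.81 within the AptCD4-LNT and Untreated cells. This is a description, since the points share libraries and each cell's total is the denominator of both values.

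Most of the cells lacked the complement transcripts that mark macrophages. At least 1 UMI of C1qa, C1qb or C1qc was found in 19 of the 54 cells, 8 of 22 AptCD4-LNT and 11 of 32 Untreated, and 6 cells reached the 20 per 10000 that defines the macrophages, 2 in the AptCD4-LNT and 4 in the Untreated library. Cells with weaker osteoclast transcripts held C1q too: a C1q UMI was found in 5 of the 11 cells below 40 per 10000 and in 14 of the 43 at or above it. Thinned to 2000 UMIs, C1qa is expected in 5.71% of AptCD4-LNT and 17.9% of Untreated osteoclast-like cells, against 13.6% and 21.9% before thinning. Cells high in S100a8 and S100a9, neutrophil genes, should lack C1qa, and it is expected in 6.23% and 9.86% of them in the 2 libraries at the same depth (5.71% and 5.37% before thinning, at medians of 1400 and 878 UMIs). The thinned values rest on 328 of 1908 AptCD4-LNT and 209 of 2440 Untreated cells of this kind, as the others were too shallow. Results that could rest on the 6 C1q-rich cells are also given without them, an alternative chosen after seeing the data.

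**Figure D1:**
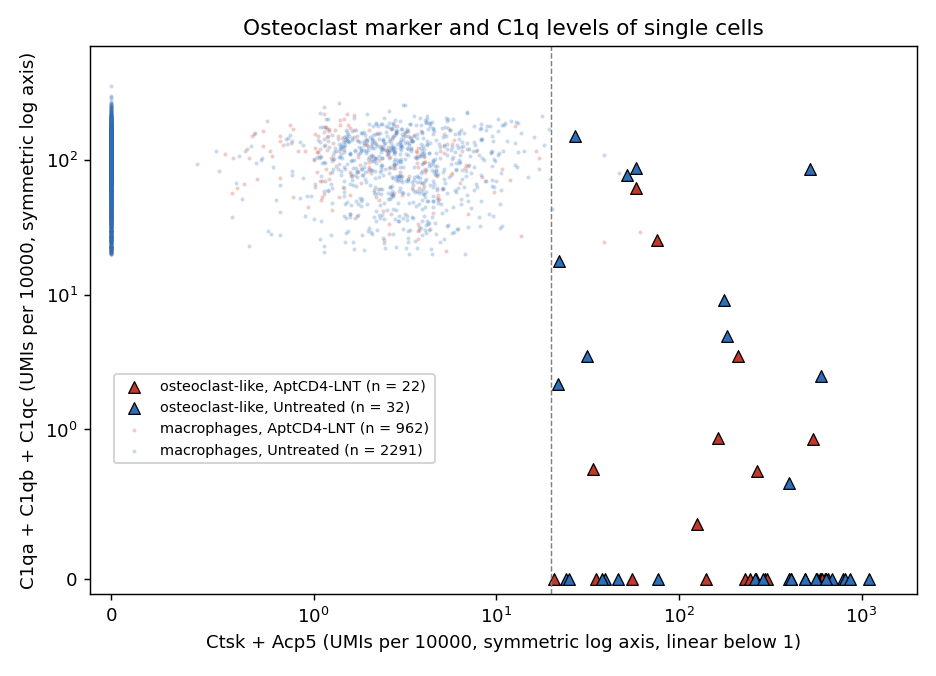
Each point is 1 cell, with Ctsk plus Acp5 on the horizontal and C1qa plus C1qb plus C1qc on the vertical axis, both in UMIs per 10000 on symmetric log axes; triangles are osteoclast-like cells (22 AptCD4-LNT, 32 Untreated), dots are C1qa-positive macrophages, and the dashed line is the rule's threshold of 20. Most triangles lie on the horizontal axis at 0 C1q, and 6 reach the C1q level of the macrophages.

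Markers of other cell types were scarce in the chosen cells. Of the T and NK cell markers Cd3e, Cd3d, Nkg7 and Klrb1c were at 0 and Trac gave 3 UMIs, and all 3 B cell and all 4 mast cell markers were at 0. A count of 0 allows up to 6.33 CPM over the 54 cells. Flt3, Ccr7, Xcr1 and Cd209a of the 5 dendritic cell markers, Pecam1, Cdh5 and Emcn of the 4 endothelial markers, and Rgs5 and Pdgfrb of the 3 pericyte markers were at 0 as well. Of the 6 osteoblast and bone matrix markers, Alpl, Sp7 and Dmp1 were at 0, and Bglap gave 11 UMIs from 2 Untreated cells. The 5 neutrophil markers summed to 207 CPM in AptCD4-LNT and 70.6 CPM in Untreated osteoclast-like cells, with Csf3r and Cxcr2 at 0, against 1044 and 1276 CPM in macrophages. The 6 fibroblast markers summed to 280 and 54.3 CPM with Pdgfra at 0, against 372 and 101 CPM in macrophages. The 6 epithelial markers summed to 55.3 and 59.7 CPM, against 98.3 and 181 CPM. Col1a1, Col3a1, Krt8 and Krt18 of these lists were capped by the rule.

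A large part of some of these transcripts in the whole tumour came from this small group. Osteoclast-like cells held 88.2% of all Oscar UMIs in the AptCD4-LNT library and 86.8% in the Untreated library. They held 44.6% and 62.8% of the Ctsk UMIs, while cells high in Col1a1 and Col3a1 held 48.7% and 20.9%, at 395 and 278 CPM. Their part of the Acp5 UMIs was 57.4% and 33.7%, and keratin-high cells, the most numerous group, held 32.9% and 46.3% at only 32.0 and 49.0 CPM. Atp6v0d2 differed between the libraries, with 88.2% of its UMIs in osteoclast-like cells of the AptCD4-LNT library and 25.2% in those of the Untreated library, where macrophages held 23.2% and cells outside all the named groups held 32.5%. Ocstamp did likewise, at 50.3% and 14.0%, with most of the Untreated UMIs in macrophages. By contrast only 8.8% and 6.9% of Mmp9 UMIs lay in osteoclast-like cells, because keratin-high cells at 297 and 252 CPM held 80.3% and 79.8%.

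Osteoclast-like cells made up 22 of 8853 AptCD4-LNT cells, or 0.249% (0.156 to 0.376%), and 32 of 20001 Untreated cells, or 0.160% (0.109 to 0.226%). The ratio of the shares was 1.55 (0.860 to 2.76), an interval that includes 1. Among osteoclast-like cells and macrophages alone the shares were 2.24% (1.41 to 3.37%) and 1.38% (0.944 to 1.94%), a ratio of 1.62 (0.899 to 2.88). For macrophages the shares were 10.9% in the AptCD4-LNT and 11.5% in the Untreated library. Which library had the larger osteoclast-like share depended on the threshold: with Ctsk plus Acp5 at 10 or more per 10000 the shares were 25 of 8853 and 59 of 20001 cells, and the ratio was 0.957 (0.574 to 1.55).

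The chosen cells were richer in RNA counts than macrophages of their own library. Their median was 11356 UMIs in the AptCD4-LNT library against 4490 in its macrophages, a ratio of 2.53 (2.13 to 4.07; this interval reflects the spread over the osteoclast-like cells, with the macrophage median held fixed), and 17 of 22 cells lay above the macrophages' upper quartile of 8281. In the Untreated library the median was 4758 against 3686, a ratio of 1.29 (1.09 to 1.76), with 11 of 32 cells above the upper quartile of 6123. The rule's minimum of 3 marker UMIs can itself leave out shallow cells. It left out 2 AptCD4-LNT and 6 Untreated cells that met the other limits. How far this raised the osteoclast-like medians was not tested. Thinned to 2000 UMIs the cells showed about as many genes as macrophages, a median of 1124 against 1099 in the AptCD4-LNT library and 1046 against 1035 in the Untreated library, leaving out 2 and 1 shallower osteoclast-like cells. The mitochondrial share was a median of 2.80% in AptCD4-LNT and 2.03% in Untreated osteoclast-like cells, against 1.25% and 1.38% in macrophages.

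**Figure D2:**
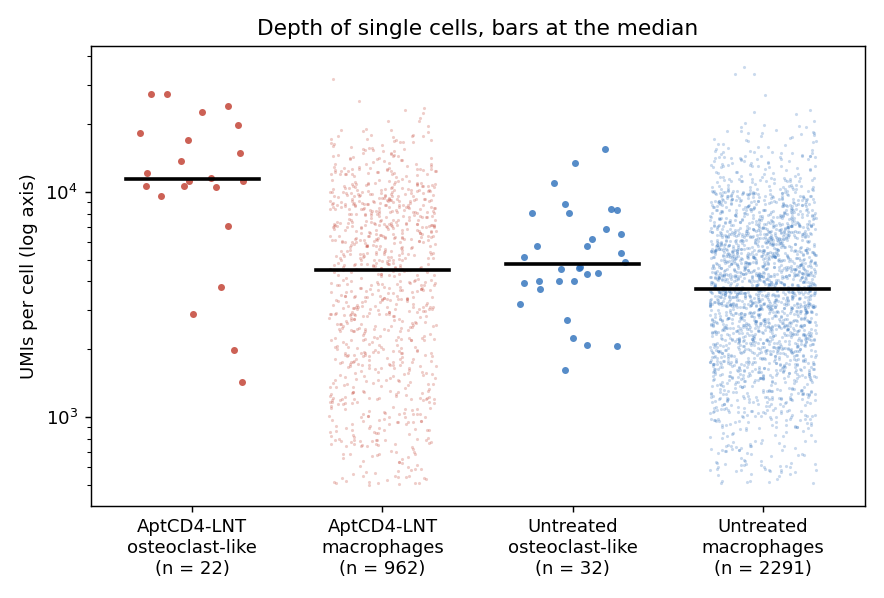
UMIs per cell on a log axis for osteoclast-like cells and C1qa-positive macrophages of each library, 1 point per cell and a bar at the median. The osteoclast-like medians of 11356 and 4758 UMIs stand above the macrophage medians of 4490 and 3686 in the same libraries.

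Set against macrophages, the osteoclast-like cells showed higher levels of genes for proton pumping and mitochondrial respiration, and lower levels of most macrophage genes. Of 3151 genes with a mean of 50 CPM or more over both cell groups, the 9 rule genes and the C1q genes left out, 341 (10.8%) were 2-fold or more higher and 278 (8.82%) 2-fold or more lower in both libraries. With median-of-ratios scaling 276 were higher and 317 lower, so which direction held more genes depends on the scaling. A gene is called higher or lower below only when it passed that rule. The median log2 ratio of all tested genes was 0.17, and list medians are to be read against it. Some genes stand in more than 1 list, and a gene below 50 CPM in 1 cell group passed the level minimum only through the other. Among the 2731 genes that reached 50 CPM in macrophages, 5.53% were higher and 10.2% lower. Since the cells were chosen on osteoclast transcripts, these counts describe the chosen cells and nothing is read from them about other osteoclasts.

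**Figure D3:**
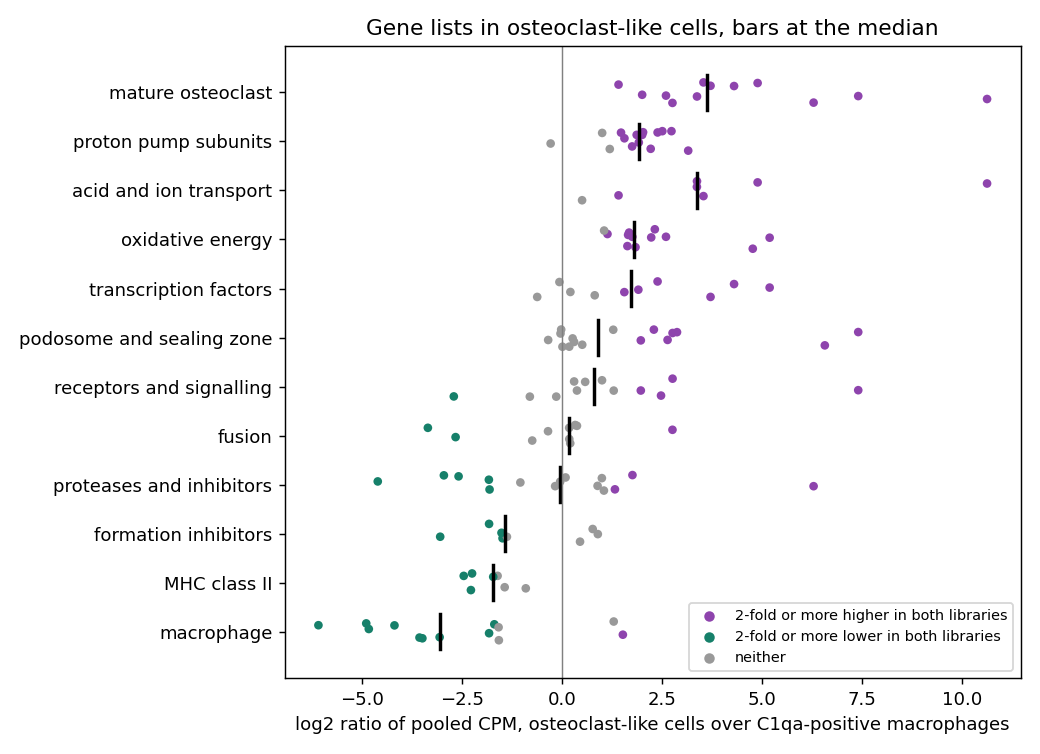
Log2 ratio of pooled CPM, osteoclast-like cells over C1qa-positive macrophages, 1 point per tested gene of each list and a bar at the list median; purple marks genes 2-fold or more higher and green genes 2-fold or more lower in both libraries. The mature osteoclast list has its median at 3.62 and the proton pump list at 1.92, and the macrophage list at -3.05.

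Known genes of mature osteoclasts outside the rule were high in the chosen cells. Of 15 such genes 3 stayed below the level minimum and 12 were tested, and all 12 tested were higher, with a median log2 ratio of 3.62. Of the 12, 8 passed the minimum only through their level in the osteoclast-like cells and so had to differ, and all 4 that reached 50 CPM in macrophages were higher. Mmp9 had 8243 and 12078 CPM in AptCD4-LNT and Untreated osteoclast-like cells, against 22.7 and 176 CPM in macrophages, a pooled ratio of 78.0 (74.0 to 82.3). Slc9b2, a sodium-proton exchanger that is induced in osteoclast formation, had 743 and 977 CPM against 1.30 and 0.0940 CPM, and was seen in 43 of the 54 cells. Dcstamp, the fusion receptor, had 152 and 174 CPM against 5.02 and 33.3 CPM. Car2, the carbonic anhydrase that supplies protons, had 135 and 92.3 CPM against 2.05 and 4.98 CPM, from 13 cells. Calcr, the calcitonin receptor of mature osteoclasts, gave 0 UMIs, which allows up to 6.33 CPM. Rufy4 and Clcn7 lay below the minimum.

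**Figure D4:**
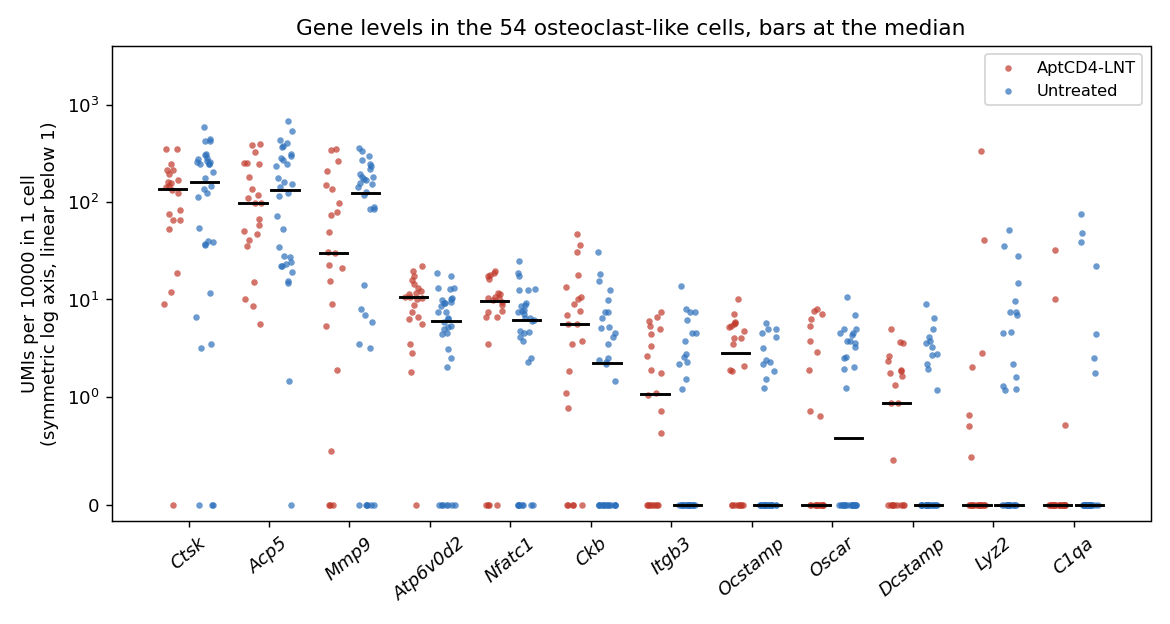
UMIs per 10000 of 12 genes in each of the 54 osteoclast-like cells, AptCD4-LNT left and Untreated right within each gene, on a symmetric log axis that is linear below 1, with bars at the median. Ctsk, Acp5 and Mmp9 spread over several orders of magnitude, and Lyz2 and C1qa are at 0 in most cells.

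The receptor for RANK ligand was present and higher than in macrophages. Tnfrsf11a had 359 and 288 CPM in AptCD4-LNT and Untreated osteoclast-like cells, against 87.8 and 45.6 CPM in macrophages, a ratio of 5.54 (4.65 to 6.57). Csf1r had 774 and 782 CPM against 414 and 269 CPM and missed the rule, with log2 ratios of 0.91 and 1.55 in the AptCD4-LNT and Untreated libraries. Itgav and Itgb3, which together form the vitronectin receptor that anchors osteoclasts to bone, were both higher. Itgb3 had 238 and 233 CPM against 0.744 and 1.69 CPM, and Itgav had 698 and 608 CPM against 124 and 84.3 CPM. Src, the tyrosine kinase needed for the ruffled border, had 107 and 76.0 CPM against 6.89 and 33.4 CPM. Of 18 receptor and signalling genes 12 were tested, and 4 were higher and 1 lower; Itgb3 and Src passed the minimum only through the osteoclast-like cells, and 2 of the 9 genes at 50 CPM or more in macrophages were higher. The lower gene was Fcgr3, an Fc receptor, at 41.5 and 201 CPM against 470 and 786 CPM. The adaptors Tyrobp (2253 and 3110 CPM against 1628 and 1781 CPM) and Fcer1g (1147 and 1618 CPM against 2326 and 2317 CPM) were seen in all 54 cells and in neither direction passed the rule.

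Of the transcription factors, NFATc1 stood out by level and by ratio. Nfatc1 had 1054 and 706 CPM in AptCD4-LNT and Untreated osteoclast-like cells, against 58.4 and 40.7 CPM in macrophages, a ratio of 19.7 (17.4 to 22.2), and was seen in 42 of 54 cells. Jdp2, an AP-1 family partner, had 556 and 402 CPM against 31.3 and 41.3 CPM. Mitf, which works with NFATc1 on Ctsk and Acp5, had 176 and 157 CPM against 44.9 and 26.1 CPM. Fosl2, a Fos family member, and Prdm1, the gene of the repressor Blimp1, were also higher. Ppargc1b, the coactivator of mitochondrial biogenesis in osteoclasts, had 169 and 103 CPM against 3.16 and 4.33 CPM. In all 6 of 10 tested genes of the 18 listed were higher and 0 lower, and 4 of the 10 passed the minimum only through the osteoclast-like cells. Fos, at 1769 and 2171 CPM against 2061 and 1987 CPM, and Spi1, the gene of PU.1, at 632 and 407 CPM against 356 and 286 CPM, passed in neither direction.

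Genes that restrain osteoclast formation were lower or passed in neither direction. Of 12 listed 8 were tested, 4 were lower and 0 higher, with a median log2 ratio of -1.43. Irf8, an interferon regulatory factor that restrains NFATc1, passed the minimum only through the macrophages and had 24.2 and 76.0 CPM in AptCD4-LNT and Untreated osteoclast-like cells, against 375 and 373 CPM in macrophages, a ratio of 0.119 (0.0734 to 0.182). Rbpj, the Notch pathway factor, and Tnfaip3, the NF-kB brake A20, were lower too. Nfkbia, the NF-kB inhibitor, was abundant in both cell groups, at 1472 and 1286 CPM against 1176 and 644 CPM.

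Most subunits of the vacuolar proton pump were higher, and each tested one was also well expressed in macrophages. Of 17 genes besides Atp6v0d2, 15 were tested, all 15 at 50 CPM or more in macrophages, and 12 were higher and 0 lower, with a median log2 ratio of 1.92. Atp6v0c, the proton-carrying ring subunit, was the most abundant at 5286 and 5629 CPM in AptCD4-LNT and Untreated osteoclast-like cells, against 1092 and 1685 CPM in macrophages, and ranked 10 among all genes. Atp6v1g1 had 2950.4 and 3094 CPM against 447 and 454 CPM. Atp6v1b2, of the ATP-hydrolysing head, had 1316 and 619 CPM against 148 and 102 CPM, a ratio of 8.89 (8.04 to 9.83). Tcirg1, the subunit isoform typical of osteoclasts, had 370 and 212 CPM against 83.6 and 73.8 CPM, a ratio of 4.00 (3.35 to 4.75). Atp6v0d1, the widely expressed counterpart of Atp6v0d2, had 104 and 48.9 CPM against 112 and 96.2 CPM and was in neither direction called.

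Of 10 genes of acid and ion transport 7 were tested and 6 were higher, though 5 of the 7 passed the minimum only through the osteoclast-like cells. All of the higher ones but Slc4a2 were already counted among the mature osteoclast genes. Snx10, a sorting nexin needed for acid secretion, had 1154 and 1113 CPM in AptCD4-LNT and Untreated osteoclast-like cells, against 123 and 103 CPM in macrophages. Slc4a2, the anion exchanger that removes bicarbonate, had 193 and 141 CPM against 21.4 and 14.5 CPM. Slc37a2, a sugar phosphate carrier of secretory lysosomes, had 639 and 277 CPM against 48.0 and 40.5 CPM. Ostm1, the partner of the chloride transporter gene Clcn7, had 93.3 and 76.0 CPM against 32.2 and 33.2 CPM, while Rab7 was close in the cell groups at 245 and 293 CPM against 182 and 189 CPM.

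Adhesion genes of the sealing zone were mixed. Of 17 podosome and sealing zone genes 16 were tested, 7 were higher and 0 lower, and the median log2 ratio was 0.89. Of the 16, 5 passed the minimum only through the osteoclast-like cells and all 5 are among the higher genes, while 2 of the 11 at 50 CPM or more in macrophages were higher. Pstpip1, a podosome scaffold, had 567 and 581 CPM in AptCD4-LNT and Untreated osteoclast-like cells, against 74.2 and 80.1 CPM in macrophages. Myo1d, an unconventional myosin, had 169 and 119 CPM against 0.930 and 1.88 CPM. Dock5, the Rac activator needed for the sealing zone, had 121 and 86.9 CPM against 22.0 and 15.1 CPM. General actin and integrin genes such as Arpc2, Tln1 and Fermt3 were in neither direction called. Fusion genes outside the rule were mostly not called: of 16 listed 10 were tested, Dcstamp was higher, and the tetraspanin Cd81 and the metalloprotease Adam8 were lower. Each of these called genes passed the minimum only through the cell group where it was higher.

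Proteases other than cathepsin K divided by member. Of 17 proteases and inhibitors 15 were tested, 3 were higher and 5 lower. Mmp14, the membrane-bound collagenase, had 484 and 402 CPM in AptCD4-LNT and Untreated osteoclast-like cells, against 162 and 119 CPM in macrophages, and Cstb, a cathepsin inhibitor, had 1983 and 1786 CPM against 596 and 845 CPM. The lysosomal cathepsins of antigen-presenting cells were lower, with Ctss at 207 and 803 CPM against 2444 and 2731 CPM and Ctsh at 48.4 and 147 CPM against 561 and 735 CPM. Lgmn, the asparagine endopeptidase, had 477 and 689 CPM against 2842 and 1553 CPM. Ctsb, Ctsd and Ctsz passed in neither direction.

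Genes of oxidative energy supply were among the most uniformly higher. Of 14 listed 12 were tested, 11 were higher and 0 lower, with a median log2 ratio of 1.80, and 8 of the 9 that reached 50 CPM in macrophages were higher. Ckb, the creatine kinase that buffers ATP in osteoclasts, had 1088 and 679 CPM in AptCD4-LNT and Untreated osteoclast-like cells, against 221 and 120 CPM in macrophages, a ratio of 6.05 (5.46 to 6.70). Tfrc, the transferrin receptor that supplies iron to mitochondria, had 459 and 152 CPM against 24.0 and 6.68 CPM. Ndufa4, of the respiratory chain, had 2152 and 1726 CPM against 578 and 346 CPM, and Atp5b, of the ATP synthase, had 1354 and 1031 CPM against 365 and 363 CPM.

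Macrophage genes were lower in 9 of 13 tested cases of 16 listed, with a median log2 ratio of -3.05. Of the 13, 5 were below 50 CPM in osteoclast-like cells and passed the minimum only through the macrophages, Adgre1 and Mrc1 among them. Adgre1, the gene of F4/80, had 6.91 and 5.43 CPM in AptCD4-LNT and Untreated osteoclast-like cells, from 3 cells, against 206 and 97.9 CPM in macrophages. Mrc1, the mannose receptor, had 13.8 and 5.43 CPM against 518 and 256 CPM, and Cd163 gave 0 UMIs. Lyz2, the lysozyme of myeloid cells, had 878 and 472 CPM against 5475 and 10012 CPM, and 68.6% of its osteoclast-like UMIs came from 1 cell. Cd68, a lysosomal protein shared by macrophages and osteoclasts, was the 1 gene of the list that was higher, at 674 and 765 CPM against 270 and 236 CPM. Apoe remained abundant at 2691 and 3735 CPM against 9208 and 10383 CPM, and without the 6 C1q-rich cells it stood at 977 and 2098 CPM.

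Other gene groups of macrophages were mixed or lower in the chosen cells. Immediate early genes, which cell dissociation can induce, were lower in 6 of 12 tested, among them Egr1 at 159 and 76.0 CPM in AptCD4-LNT and Untreated osteoclast-like cells, against 1170 and 489 CPM in macrophages. Of 15 lipid and lysosome genes 12 were tested and 4 were lower, Lamp1, Lamp2, Lipa and Abca1, while Npc2 and Lpl were higher, Lpl at 190.0 and 282 CPM against 2.61 and 8.46 CPM. Lpl passed the minimum only through the osteoclast-like cells and Lipa only through the macrophages. Chemokine and other secreted genes gave 1 higher of 9 tested, Pdgfb, a growth factor that osteoclast precursors release, at 228 and 76.0 CPM against 83.0 and 27.3 CPM, and 2 lower, Il1rn and C3; Pdgfb passed the minimum only through the osteoclast-like cells and C3 only through the macrophages. Spp1, osteopontin, had 674 and 4891 CPM against 2765 and 8997 CPM and missed the rule. None of the 6 tested proliferation genes was called, and Mki67 or Top2a gave a UMI in 10 of the 54 cells. Most of those UMIs came from AptCD4-LNT cells at 20.6 and 33.9 Ctsk plus Acp5 per 10000. These cells gave 15 and 40 Mki67, 13 and 30 Top2a, and 1 and 0 Mmp9 UMIs.

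Of 13 listed ligands and regulators of osteoclast formation, 8 gave 0 UMIs in osteoclast-like cells. Tnfsf11, RANK ligand, was among them, and cells high in Col1a1 and Col3a1 held 82.7% of its UMIs in the AptCD4-LNT library and 41.3% in the Untreated library, at 16.3 and 19.6 CPM. In the Untreated library cells outside all the named groups held 33.8% of its UMIs and keratin-high cells 20.2%. Tnfrsf11b, the decoy receptor osteoprotegerin, stood at 26.1 and 25.4 CPM in the cells high in Col1a1 and Col3a1 and at 0 UMIs in osteoclast-like cells. Csf1 reached 611 and 257 CPM in the S100a8 and S100a9-high cells, against 17.3 and 5.43 CPM in AptCD4-LNT and Untreated osteoclast-like cells. Those cells held 17.9% of the Csf1 UMIs in the AptCD4-LNT and 9.05% in the Untreated library. Keratin-high cells held 58.2% and 73.7%, at 82.0 and 56.2 CPM. Il1b, an inflammatory cytokine, was lower than in macrophages, at 72.6 and 125 CPM against 2113 and 2299 CPM.

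Outside the lists, the 10 largest ratios in each direction named further genes of the chosen cells. Mt3, a metallothionein, had 598 and 402 CPM in AptCD4-LNT and Untreated osteoclast-like cells, against 0 and 0.564 CPM in macrophages, from 28 cells. Cd109, a membrane protein that binds TGF-beta, had 404 and 337 CPM, with a pooled ratio of 202 (136 to 308), in 36 cells. Cd200, a ligand that restrains myeloid cells, had 197 and 76.0 CPM against 0.372 and 3.67 CPM. Itga2, the collagen-binding integrin subunit, had 72.6 and 147 CPM against 0.930 and 2.26 CPM. Gask1b, Bdh2, Kbtbd11, Pheta1 and Adcy3 were also among the higher genes, with pooled ratios of 49.6 to 155. The lower genes were led by Ifitm1, an interferon-induced membrane protein, at 6.91 and 21.7 CPM against 607 and 2431 CPM. With it came 4 monocyte-attracting chemokine genes, Ccl12, Ccl8, Ccl2 and Ccl7, and the genes Pld4, AW112010, Ncf1, Alox5ap and Aif1, with pooled ratios of 0.0101 to 0.0372. Every higher and lower gene of this paragraph passed the level minimum only through the cell group where it was higher.

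Between the libraries, most osteoclast genes of the chosen cells differed little, while genes of antigen presentation were lower in the AptCD4-LNT library. Of 1648 genes with a mean of 100 CPM or more over the libraries, 77 (4.67%) were 2-fold or more higher and 91 (5.52%) 2-fold or more lower in AptCD4-LNT than in Untreated osteoclast-like cells, with a median log2 ratio of 0.13. With median-of-ratios scaling 52 were higher and 107 lower. A gene below 100 CPM in the cells of 1 library passed the level minimum only through the other library. Of the 11 tested mature osteoclast genes 1 was higher, Slc37a2 at 639 and 277 CPM, a ratio of 2.31 (1.69 to 3.21), and 0 were lower. Nfatc1 had a log2 ratio of 0.58 (0.28 to 0.89), Mmp9 -0.55 (-0.64 to -0.47) and Snx10 0.05 (-0.20 to 0.31). Of 14 proton pump genes 3 were higher, Atp6v1a, Atp6v1b2 and Atp6v1c1, with log2 ratios of 1.07 to 1.26, and 0 were lower. Of 12 tested oxidative energy genes Tfrc alone was higher.

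All 6 tested MHC class II genes were lower in AptCD4-LNT osteoclast-like cells, with a median log2 ratio of -3.14, against -0.14 for the list in macrophages. H2-Aa had 111 CPM in AptCD4-LNT and 1113 CPM in Untreated osteoclast-like cells, a ratio of 0.0993 (0.0662 to 0.145), and was seen in 13 of 22 and 25 of 32 cells. Thinned to 2000 UMIs it is expected in 22.0% and 61.8% of them, against 9.26% and 20.3% of the S100a8 and S100a9-high cells, which should hold little of it (5.71% and 9.75% before thinning, at medians of 1400 and 878 UMIs). Only 328 of 1908 and 209 of 2440 of the S100a8 and S100a9-high cells were deep enough to be thinned. Cd74, the invariant chain, had 501 and 4049 CPM, a ratio of 0.124 (0.103 to 0.148). H2-Eb1 had 38.0 and 776 CPM, H2-Ab1 72.6 and 717 CPM, H2-DMa 51.8 and 179 CPM, and H2-DMb1 58.7 and 244 CPM. H2-Eb1, H2-Ab1, H2-DMa and H2-DMb1 passed the minimum of 100 CPM only through the Untreated cells, and so had to be lower in AptCD4-LNT cells. H2-Aa and Cd74 reached it in both libraries. The cell with the most H2-Aa UMIs among Untreated members held 22.9% of them.

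The same genes differed less, or not, in macrophages and in the same direction in several other cells of the tumour. Macrophages had 2615 CPM of H2-Aa in the AptCD4-LNT and 2811 CPM in the Untreated library. Keratin-high cells had 278 and 770 CPM, collagen-high cells 51.2 and 185 CPM, and S100a8 and S100a9-high cells 107 and 194 CPM. The part of free RNA in these values was not tested. In the AptCD4-LNT library the osteoclast-like level of H2-Aa stood close to that of the S100a8 and S100a9-high cells, and in the Untreated library above it. C1qa stood at 93.3 CPM in AptCD4-LNT and 418 CPM in Untreated osteoclast-like cells. Without the 6 C1q-rich cells, 5 of 5 tested MHC class II genes were still lower, with a median log2 ratio of -3.01, and H2-Aa stood at 114 and 934 CPM.

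**Figure D5:**
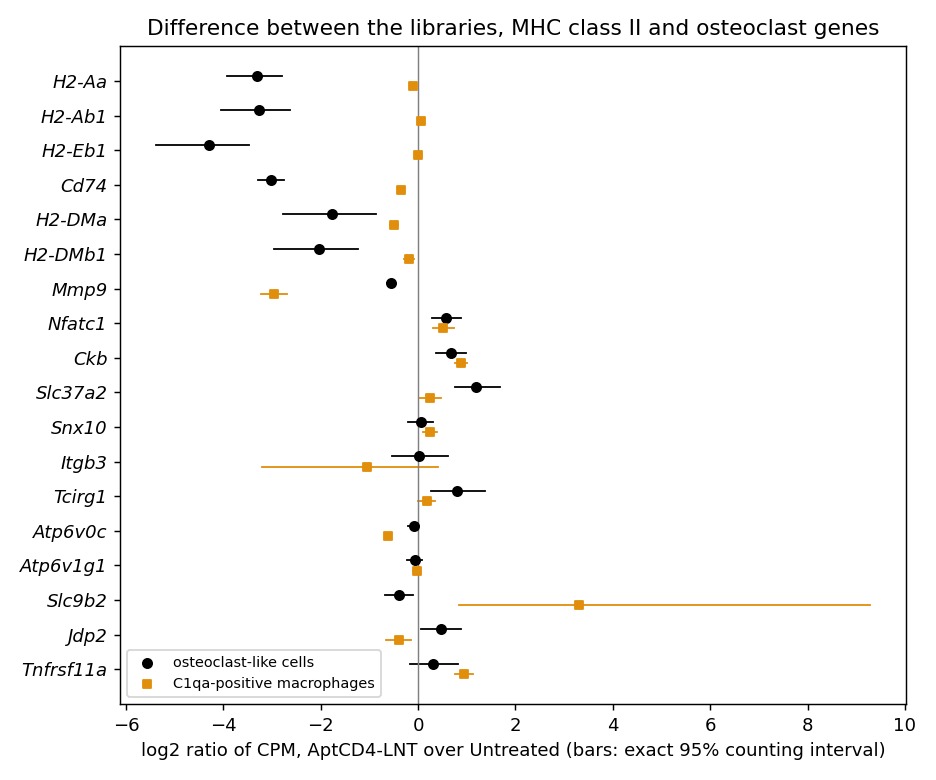
Log2 ratio of CPM, AptCD4-LNT over Untreated, for MHC class II genes and abundant osteoclast genes in osteoclast-like cells (circles) and C1qa-positive macrophages (squares), with exact 95% counting intervals. The 6 MHC class II genes lie between -4.29 and -1.76 in osteoclast-like cells and between -0.49 and 0.07 in macrophages.

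Interferon-response genes were lower in AptCD4-LNT osteoclast-like cells in 3 of 3 tested of 16 listed. Irf1, an interferon-induced transcription factor, had 41.5 CPM in AptCD4-LNT and 185 CPM in Untreated osteoclast-like cells, a ratio of 0.225 (0.106 to 0.445), and in macrophages it had 159.8 and 145 CPM. Irf1 passed the minimum of 100 CPM only through the Untreated osteoclast-like cells. Igtp, an interferon-induced GTPase that was below the level minimum, gave 0 UMIs in AptCD4-LNT cells and 18 UMIs from 13 Untreated cells. Igtp was 9.43-fold lower at a floor of 3 UMIs per library, and the exact interval of the ratio was 0 to 0.145. Against macrophages of both libraries, 3 of 8 tested interferon genes were lower in osteoclast-like cells, Isg15, Cxcl9 and Cxcl10, and Cxcl9 was at 0 UMIs. All of these called genes were below 50 CPM in osteoclast-like cells and passed the minimum only through the macrophages.

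A few further genes were named by the size of their difference. Dot1l, a histone methyltransferase, had 190.0 CPM in AptCD4-LNT and 43.4 CPM in Untreated osteoclast-like cells, a ratio of 4.38 (2.07 to 10.6). Of its UMIs over both libraries 30.2% came from 1 cell, and the Untreated cells gave 8 UMIs. Vcp, Kbtbd11, Plxnd1 and Atp2b4 were higher by ratios of 3.04 to 3.73. Spp1 had 674 and 4891 CPM, with 30.2% of its UMIs from 1 cell, and its log2 ratio of -2.86 became 0.13 in cells with Ctsk plus Acp5 at 40 or more per 10000. Of 13 tested proteases and inhibitors 4 were lower, Ctsl, Ctss, Cst3 and Mmp12. In cells with Ctsk plus Acp5 at 40 or more per 10000, 2 of 12 tested were lower. Ctsl, a lysosomal cathepsin, had 712 and 2703 CPM, and Mmp12, the macrophage elastase, had 3.45 and 722 CPM from 9 cells, against 31.4 and 1480.3 CPM in macrophages. Of the lower genes outside the lists, Cxcl3, a neutrophil chemokine, had 0 and 54 UMIs, a ratio of 0 (0 to 0.0450). But 87.0% of those UMIs came from 1 cell, and macrophages had 9.30 and 301 CPM. Tnfrsf9 had 0 and 47 UMIs from 6 Untreated cells, 1 of which gave 48.9%, a ratio of 0 (0 to 0.0520). In macrophages it stood at 14.1 and 296 CPM. Ccl24 and Wfdc17 came from 4 and 6 Untreated cells, and in each gene 1 cell gave 46.9% and 54.5% of the Untreated UMIs. H2-Ea, a further MHC class II gene, had 58.7 and 1167 CPM. Dot1l, Vcp and Atp2b4 passed the level minimum only through the AptCD4-LNT cells. Mmp12, Cxcl3, Tnfrsf9, Ccl24, Wfdc17 and H2-Ea passed it only through the Untreated cells.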

How the data were processed

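The 2 matrices were deposited as raw counts of UMIs, with no scaling per the file headers, over 55357 genes. Cell Ranger 7.2.0 and GRCm39 are named per the submitters' processing notes, and nothing upstream was rerun. The smallest barcode total is 500 UMIs, so emptier droplets were not analysed here. Filters removed 78 AptCD4-LNT and 39 Untreated barcodes.

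Counts were summed per cell group and library and scaled to CPM. With 1 library per group and cells that are no replicates, no test was made. Calls use 2-fold with 0.5 UMI added to each sum. Intervals are exact 95% binomial (Clopper-Pearson) for shares, conditional binomial for ratios, and from order statistics for medians. Shares of cells at 2000 UMIs are the hypergeometric expectation over all ways to thin a cell, because a single seeded draw gave 0 cells with Oscar where the expectation was 5.56 of 20. Scrublet ran per library in scanpy 1.11.5, and its doublets were kept except in an alternative. Other software was Python 3.11.15, numpy 2.4.6, scipy 1.17.1, pandas 2.3.3 and matplotlib 3.10.9. The calculation was checked on simulated counts.

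The members and gene lists were chosen with earlier results of these data known. Named genes were the 4 to 8 most abundant of each list, the list members with the largest ratios, and outside the lists the largest ratios among called genes with at least 30 UMIs and an interval excluding 1, up to 10 in each direction against macrophages and 5 between libraries. Other genes named were chosen after their values were seen. Alternatives changed the rule's thresholds, level minimum, scaling, weighting, doublets and macrophage definition. Some genes that this rule names are not reported here.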

Additional observations from a re-analysis of the deposited data

How the results depend on the processing

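No paired analysis was possible because each group is 1 library and the groups share fewer than 2 replicate numbers. The osteoclast-like share of the Untreated library was 0.295% with Ctsk plus Acp5 at 10 or more per 10000, and the ratio of the shares was 0.957 there. It was 1.43 to 1.79 under the other alternatives over all cells, each with an interval that includes 1. As shares of osteoclast-like cells plus macrophages the values were 2.24% in the AptCD4-LNT and 1.38% in the Untreated library. Against macrophages, level minimums of 20 and 100 CPM gave 566 and 190 higher and 530 and 161 lower genes. Between libraries, minimums of 50 and 200 CPM gave 224 and 20 higher and 167 and 37 lower genes. The share of tested genes called higher between libraries also moved, to 7.23% at 50 CPM and 2.54% at 200 CPM. In the library comparison the log2 ratio of Ccl3 turned to 1.39 with each cell weighted equally. With Ctsk plus Acp5 at 40 or more per 10000 it was 0.40 for Ccl3, 3.17 for Cd14, -1.47 for Mki67 and 0.13 for Spp1. The cause of these changes was not tested. Of the Mki67 UMIs, 15 came from 1 AptCD4-LNT cell at 20.6 per 10000 and 40 from another at 33.9. Both cells are left out at this threshold. Of 253 list medians recomputed under the alternatives run, none that had reported 1 or more in size on the log2 scale changed sign. Smaller medians were not judged by this rule, and some did change sign. In the library comparison that of the chemokine and other secreted genes went from 0.26 to -0.37 without the C1q-rich cells. Few UMIs, 289454 in AptCD4-LNT and 184224 in Untreated osteoclast-like cells, limit every low gene.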
